A study of Mus musculus with 6 samples.

Results

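The 10 genes described here carry glucose into the cell and convert it to lactate. They were chosen by name, as the transporter Slc2a1, the hexokinases Hk1 and Hk2, Gpi1, Pfkl, Aldoa, Tpi1, Pgk1, Eno1 and Ldha, out of 20659 genes with a symbol on the array. All 10 were measured, through 16 probes, and their values were compared between spleens of the model group (MOD, arrays MOD 1, MOD 2 and MOD 3) and of the high-dose schizandrol A group (SA-H, arrays SA-H 4, SA-H 5 and SA-H 6). Both groups were male outbred ICR mice, 8 weeks old at purchase, that received 40 mg/kg cyclophosphamide (Cy) by intraperitoneal injection for 5 days. Cy is an alkylating drug that kills dividing cells and lowers the number of lymphocytes. From the next day the SA-H mice were given schizandrol A, a lignan of Schisandra chinensis, by gavage at 1 g/kg per day for 4 weeks, and the MOD mice received distilled water instead. The sample labels give day 5 for MOD and day 28 for SA-H, which equal the lengths of the Cy and the schizandrol A treatment, while the treatment description has both groups gavaged for the same 4 weeks. Whether the spleens were taken at different times is thus not settled by these sources. Untreated mice were part of the experiment but are not analysed here. The labels do not say that each array holds RNA of a separate mouse, so the p-values below measure the spread between these arrays, which may be technical.

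Glycolysis splits 1 glucose into 2 molecules of pyruvate in the cytosol, and lactate dehydrogenase turns pyruvate into lactate so that the pathway can go on. Glucose enters through facilitative transporters, is trapped by phosphorylation, and is committed to the pathway by phosphofructokinase, the main point of control. In the spleen, lymphocytes raise this pathway when they are activated and divide, and red blood cells, which lack mitochondria, depend on it for ATP. Many of its genes are known targets of HIF-1, the transcription factor of the hypoxia response, whose core letters can read ACGTG. Only ACGTG was searched for here, so a window without it may hold another form of the core, such as GCGTG. In whole spleen, fewer cells of a type and less RNA per cell cannot be told apart.

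The promoter windows of 3 of the genes are shown because these genes stand at the entry (Slc2a1), the control step (Pfkl, the 1 gene whose change passed an unadjusted p of 0.05) and the end (Ldha) of the pathway. Each runs from 250 bases before to 50 bases after an annotated transcription start in RefSeq (build GRCm38.p6), on the strand of the gene, and capitals mark ACGTG read on either strand, that is, ACGTG or CACGT. The Slc2a1 window lies at chr4:119108495-119108794 (plus strand), the Pfkl window at chr10:78009758-78010057 (minus strand) and the upstream one of the 2 Ldha windows at chr7:46845554-46845853 (plus strand).
Slc2a1: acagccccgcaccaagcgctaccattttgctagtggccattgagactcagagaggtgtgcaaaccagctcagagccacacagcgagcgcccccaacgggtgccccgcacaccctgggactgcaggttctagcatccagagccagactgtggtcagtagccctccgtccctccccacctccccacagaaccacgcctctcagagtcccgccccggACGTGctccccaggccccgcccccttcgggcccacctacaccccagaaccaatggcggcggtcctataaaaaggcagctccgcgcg
Pfkl: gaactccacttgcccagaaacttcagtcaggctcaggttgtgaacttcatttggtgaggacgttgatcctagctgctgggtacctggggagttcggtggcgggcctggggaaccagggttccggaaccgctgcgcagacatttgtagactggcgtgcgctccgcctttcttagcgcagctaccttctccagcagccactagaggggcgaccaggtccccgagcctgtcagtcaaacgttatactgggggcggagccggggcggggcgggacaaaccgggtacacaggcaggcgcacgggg
Ldha: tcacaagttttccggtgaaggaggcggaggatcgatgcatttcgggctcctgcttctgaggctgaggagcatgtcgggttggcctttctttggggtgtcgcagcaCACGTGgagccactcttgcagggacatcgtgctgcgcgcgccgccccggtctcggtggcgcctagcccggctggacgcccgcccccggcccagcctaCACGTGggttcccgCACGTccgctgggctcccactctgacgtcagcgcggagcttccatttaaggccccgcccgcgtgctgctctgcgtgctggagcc
The Slc2a1 window holds ACGTG once and the Pfkl window holds none. The Ldha window holds 5 matches over both strands, of which 4 come from 2 copies of the palindrome CACGTG, each counted once per strand. The form GCGTG, which is not marked, can be read in all 3 printed windows when both strands are taken. Over all 10 genes there were 16 such windows, and 7 of them, belonging to 6 genes (Slc2a1, Hk1, Hk2, Aldoa, Pgk1 and Ldha), held ACGTG on either strand, against 19.6% of the 32851 mouse windows in the same table. CACGTG was found in 1 of the 16 windows, against 7.15% of all windows. The Aldoa windows that hold a match overlap and share the same one, so that it is counted in each of them. These matches are a description of the letters and do not show binding.

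None of the 10 genes differed between the SA-H and MOD groups after adjustment. Levels are given as log2 of the processed signal relative to the 75th percentile of the array, so that 0 is the brightness exceeded by 25% of the spots, and changes are SA-H minus MOD. Of the 10 genes, 0 reached an adjusted p of 0.05 (limma, Benjamini-Hochberg over 14474 genes and unnamed targets, of which 0, or 0%, did so, with a smallest adjusted p of 0.0712). At an unadjusted p under 0.05, 1 of the 10 passed, Pfkl, which was lower, against 23.3% of all tested features in either direction, 12.5% lower and 10.8% higher. A change of at least 2-fold with an unadjusted p under 0.05 was found for 0 of the 10 genes, against 12.8% of all features. The 3 levels of one group lay wholly outside those of the other for 2 of the 10, Hk2 and Pfkl, against 32.7% of all features. The mean level was lower in the SA-H group for 8 genes and higher for 2, with a median change of -0.26 against -0.04 for all features, of which 52.3% were lower. The 8 to 2 split was the same after scaling by the array median, after quantile normalization and after normexp background correction, and was 7 to 3 in the value table of the authors, with scan day as a block, with the mean of the kept probes and without SA-H 5. It was 9 to 1 without SA-H 4 and 6 to 4 within each of the 2 scan days that held both groups.

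**Figure D1:**
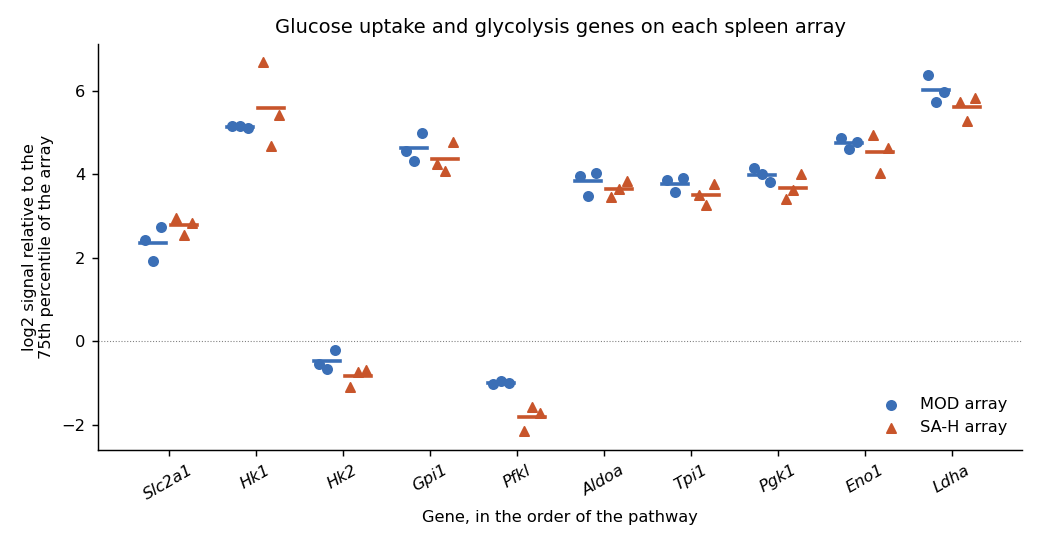
Log2 signal of the 10 genes over the array's 75th percentile (vertical axis) on the 3 MOD arrays (circles) and the 3 SA-H arrays (triangles), with group means as bars. The groups are apart for Hk2 and Pfkl and overlap for the other 8 genes, and Hk1 on array SA-H 4, at 6.68, lies above the other 5 arrays.

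Slc2a1 (chromosome 4) encodes GLUT1, the transporter that supplies most cells with basal glucose. Its levels were 2.42, 1.93 and 2.73 in MOD and 2.96, 2.54 and 2.83 in SA-H. The lowest SA-H array lay below the highest MOD array, and MOD 2 was the lowest of all. The mean was 2.36 ± 0.40 (SD, n = 3) for MOD and 2.78 ± 0.22 (SD, n = 3) for SA-H, a difference of 0.42 (SE 0.28, 95% interval -0.25 to 1.09, limma adjusted p = 0.396). Within the arrays scanned on 1 day the difference was 0.26 (MOD 1 and MOD 3 against SA-H 6), and on the other day 1.03 (MOD 2 against SA-H 4).

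The hexokinases trap glucose as glucose 6-phosphate. Hk1 (chromosome 10), the isoform present in most tissues and in red blood cells, stood at 5.15, 5.15 and 5.10 in MOD and at 6.68, 4.67 and 5.41 in SA-H. The MOD arrays were nearly level, while the SA-H arrays lay on both sides of them and spanned 2.01, the largest range of the 10 genes. The difference of 0.45 (SE 0.48, 95% interval -0.68 to 1.59, limma adjusted p = 0.578) rested on SA-H 4, and was -0.09 without it. Before scaling, the Hk1 signal was 22141, 29910 and 20536 in MOD and 22473, 22090 and 18436 in SA-H. The 75th percentile of SA-H 4, 219.7, was the lowest of the 6 arrays, and the part of this in the high relative level of Hk1 was not tested. With scan day as a block the Hk1 difference was 0.82 (limma adjusted p = 0.162), and in the authors' value table, whose columns match the scanner arrays poorly, it was -0.74 (limma adjusted p = 0.0404). Hk2 (chromosome 6), the inducible hexokinase of muscle, fat and activated lymphocytes, had levels of -0.55, -0.66 and -0.20 in MOD and of -1.10, -0.73 and -0.68 in SA-H. All 3 SA-H arrays were below all 3 MOD arrays, but the lowest MOD level (-0.66) and the highest SA-H level (-0.68) nearly met. The difference in Hk2 was -0.37 (SE 0.25, 95% interval -0.96 to 0.22, limma adjusted p = 0.396).

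Pfkl (chromosome 10), the liver-type subunit of phosphofructokinase, which makes fructose 1,6-bisphosphate, gave the lowest p of the 10. It stood at -1.03, -0.96 and -1.0 in MOD and at -2.16, -1.58 and -1.72 in SA-H. The MOD arrays lay close together, every SA-H array was lower, and SA-H 4 was the lowest. The mean was -1.0 ± 0.03 (SD, n = 3) for MOD and -1.82 ± 0.30 (SD, n = 3) for SA-H, which is 1.77-fold lower (log2 difference -0.82, SE 0.24, 95% interval -1.40 to -0.25, limma adjusted p = 0.126). Within scan days the difference was -0.71 and -1.19. Before scaling, the Pfkl signal was 307, 431 and 301 in MOD and 49, 291 and 131 in SA-H, and it was well above background on all 6. On SA-H 4 it stood at -2.16, and the lowest level well above background on that array was -2.70. After normexp background correction the Pfkl difference was -0.47 (limma adjusted p = 0.19). In the value table of the authors the Pfkl difference was 0.20, in the opposite direction. Gpi1 (chromosome 7), which turns glucose 6-phosphate into fructose 6-phosphate ahead of this step, had levels of 4.55, 4.32 and 4.99 in MOD and of 4.24, 4.07 and 4.78 in SA-H. The groups overlapped, and the difference was -0.25 (SE 0.30, 95% interval -0.96 to 0.45, limma adjusted p = 0.616).

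Aldolase A and triosephosphate isomerase form the triose phosphates. Aldoa (chromosome 7), the aldolase of muscle and red blood cells, had levels of 3.96, 3.49 and 4.03 in MOD and of 3.45, 3.64 and 3.84 in SA-H. MOD 2 and SA-H 4 were the low arrays, 1 in each group, and the difference was -0.19 (SE 0.26, 95% interval -0.79 to 0.42, limma adjusted p = 0.673). Tpi1 (chromosome 6) stood at 3.86, 3.57 and 3.90 in MOD and at 3.51, 3.26 and 3.76 in SA-H. SA-H 6 lay above MOD 2, so the groups overlapped, and the difference was -0.26 (SE 0.25, 95% interval -0.84 to 0.31, limma adjusted p = 0.527).

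In the later steps of the pathway, phosphoglycerate kinase makes the first ATP and enolase makes phosphoenolpyruvate. Pgk1 (chromosome X) had levels of 4.15, 4.00 and 3.82 in MOD and of 3.41, 3.63 and 4.01 in SA-H, with SA-H 6 inside the MOD range. The Pgk1 difference was -0.31 (SE 0.25, 95% interval -0.91 to 0.29, limma adjusted p = 0.471), and 0.02 and -0.59 within the 2 scan days. Eno1 (chromosome 4) stood at 4.88, 4.60 and 4.77 in MOD and at 4.94, 4.03 and 4.62 in SA-H. SA-H 4 was the highest and SA-H 5 the lowest of the 6 arrays. The Eno1 difference was -0.22 (SE 0.29, 95% interval -0.91 to 0.47, limma adjusted p = 0.659), and 0.03 without SA-H 5.

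Ldha (chromosome 7), the muscle-type subunit of lactate dehydrogenase, had levels of 6.38, 5.72 and 5.98 in MOD and of 5.72, 5.28 and 5.82 in SA-H. MOD 1 stood above the rest, SA-H 5 below, and the other 4 arrays lay between 5.72 and 5.98. The mean was 6.02 ± 0.33 (SD, n = 3) for MOD and 5.61 ± 0.29 (SD, n = 3) for SA-H. The difference was -0.42 (SE 0.28, 95% interval -1.07 to 0.24, limma adjusted p = 0.388), and -0.36 and 0.01 within the 2 scan days. After quantile normalization it was -0.82, past an unadjusted p of 0.05 (limma adjusted p = 0.185).

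**Figure D2:**
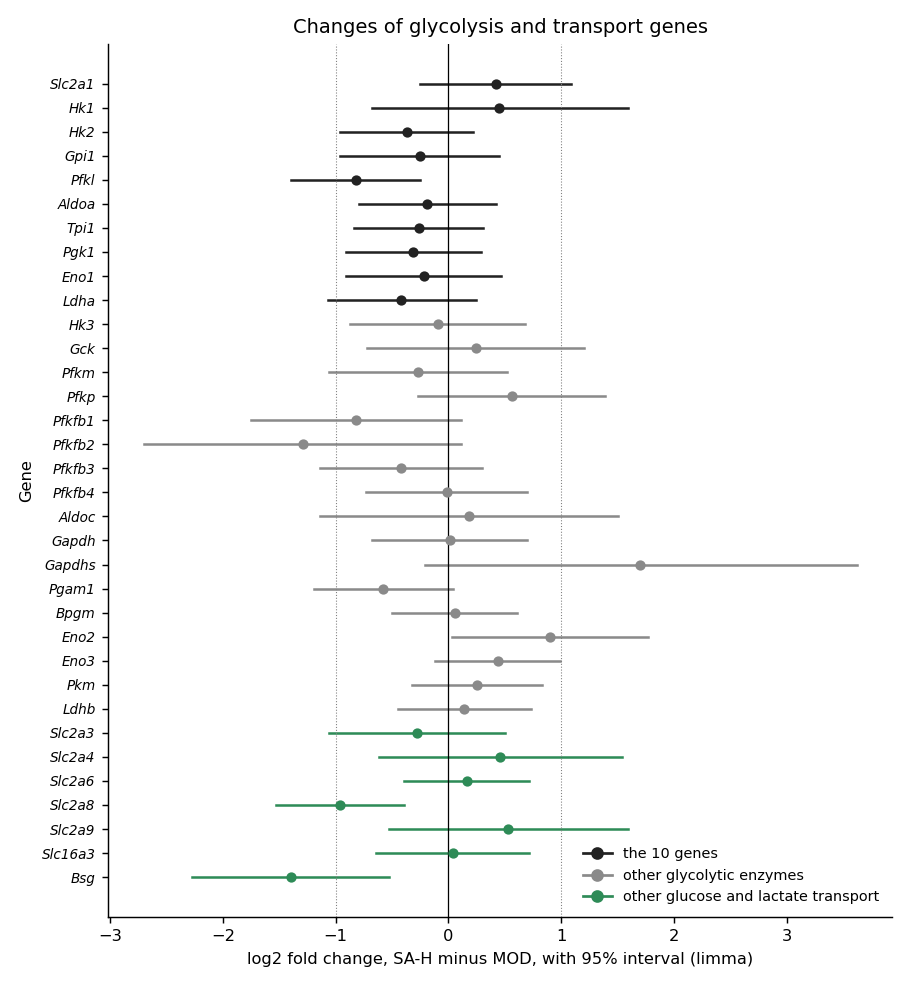
Log2 fold change (SA-H minus MOD, horizontal axis) with its 95% interval from limma for the 10 genes (black), 17 other glycolytic enzymes (grey) and 7 genes of glucose and lactate transport (green), with dotted lines at 2-fold. Among the 10 genes the interval of Pfkl (-1.40 to -0.25) is the one that does not reach 0.

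The precision of 3 arrays against 3 limits these comparisons. The 95% intervals extended by 0.57 to 1.14 on either side of the difference, and for 6 of the 10 genes they lay wholly within 2-fold in either direction. The range of a gene over the 6 arrays ran from 0.59 to 2.01, with a median of 0.92 against 1.24 for all features, and 9 of the 10 genes were under the latter value.

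For the 4 genes with several probes, the other probes did not always follow the one that stood for the gene. The 3 probes of Gpi1 gave -0.25, -0.40 and -0.33, all in the same direction. Of the 3 Ldha probes, the brightest gave -0.42 and the next 0.02 (SE 0.46). The dimmest Ldha probe stood at -1.87, -1.51 and -2.0 in MOD and at 0.08, -1.16 and -0.93 in SA-H. All 3 SA-H arrays were above all 3 MOD arrays for this probe, in the direction opposite to the brightest one, by 1.12 (SE 0.37, limma adjusted p = 0.143 over 16901 kept probes). The mean of the kept Ldha probes gave 0.24 in place of -0.42. The direction of Ldha was thus that of its brightest probe alone, and the transcripts that each probe detects were not examined. The second Tpi1 probe was lower in the SA-H group by a larger amount than the first, at -0.82 (SE 0.37, limma adjusted p = 0.231). A second Hk1 probe was well above background on 4 of the 6 arrays and was not kept.

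**Figure D3:**
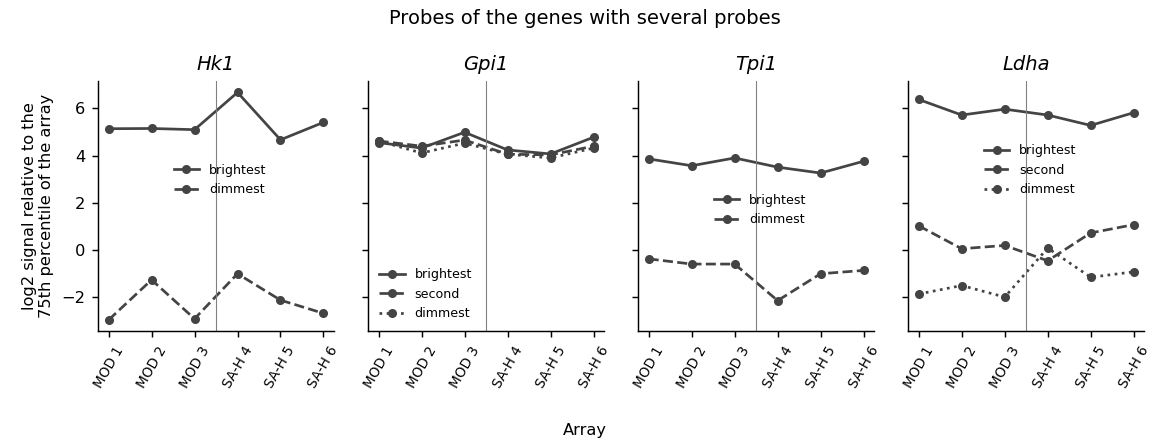
Log2 signal relative to the 75th percentile of the array (vertical axis) for each probe of Hk1, Gpi1, Tpi1 and Ldha on the 6 arrays (horizontal axis), with the MOD and SA-H arrays parted by a vertical line. The Gpi1 probes run together, while the dimmest Ldha probe is higher on all 3 SA-H arrays and the brightest is not.

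Across the arrays, the 10 genes tended to be low on MOD 2, SA-H 4 and SA-H 5. Centred on its own mean, the median gene stood at 0.22, -0.09 and 0.21 on MOD 1, MOD 2 and MOD 3 and at -0.19, -0.29 and 0.08 on SA-H 4, SA-H 5 and SA-H 6. MOD 2 held the lowest MOD level for 7 of the 10 genes, SA-H 5 the lowest SA-H level for 6, and all 10 genes were below their own mean on SA-H 5. These arrays also had the largest share of spots well above background, 72.2% on MOD 2 and 73.9% on SA-H 5 against 43.1% to 49.4% on the other 4, and the part of this in the levels was not tested. Of 9342 other named genes well above background on all arrays, those most like the mean profile of the 10 over the 6 arrays were Ppa2 (Pearson r = 0.995), Kifbp (0.992), 4933434E20Rik (0.990), Hsph1 (0.989) and Ovca2 (0.989). Ppa2 encodes a mitochondrial pyrophosphatase and Hsph1 a heat shock protein. With 6 points that share their arrays, 261 genes had an r above 0.9, and the order is a description.

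The other enzymes of glycolysis showed no common direction. Of 24 listed, 17 were tested, and 1 was higher and 0 lower at an unadjusted p under 0.05. Of all features, 10.8% were higher and 12.5% lower at that limit. The groups did not overlap for 4 of the 17, against 32.7% of all features. The median change of these enzymes was 0.06 (-0.26 after scaling by the array median, where the median of all features was -0.36). The enzyme that passed as higher was Eno2, the neuronal enolase. Its levels were -2.55, -2.15 and -2.08 in MOD and -0.62, -1.90 and -1.57 in SA-H. Every SA-H array was above every MOD array, by 0.90 on average (SE 0.37, limma adjusted p = 0.205), and the difference was 0.52 (limma adjusted p = 0.258) without SA-H 4. Gapdh, which oxidises glyceraldehyde 3-phosphate, differed by 0.01 (SE 0.29, limma adjusted p = 0.986), but by -0.55 as the mean of its kept probes and by -0.52 after quantile normalization, both past an unadjusted p of 0.05, and by -0.42 in the value table. Pkm, which makes pyruvate and ATP, differed by 0.25 (SE 0.25, limma adjusted p = 0.539). Pfkp, the platelet-type phosphofructokinase subunit, differed by 0.56 (SE 0.35, limma adjusted p = 0.358), by -0.27 within the scan day of MOD 2 and SA-H 4, and by 0.06 in the value table. Pfkm, the muscle-type subunit, differed by -0.27 (limma adjusted p = 0.636). Pgam1, the phosphoglycerate mutase, stood at 4.26, 3.98 and 4.28 in MOD and 3.29, 3.55 and 3.96 in SA-H, a difference of -0.58 (SE 0.26, limma adjusted p = 0.235).

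Among 7 tested genes of glucose and lactate transport, 2 passed an unadjusted p of 0.05, both lower in SA-H. Of all features, 12.5% were lower at that limit. The 2 groups of arrays did not overlap for 2 of the 7 genes, against 32.7% of all features. Bsg, or basigin, which carries the lactate transporters MCT1 and MCT4 to the cell surface, stood at 1.30, 0.94 and 0.57 in MOD and at -1.17, -0.18 and -0.05 in SA-H. The groups were apart, with SA-H 4 the lowest, by -1.40 (SE 0.37, limma adjusted p = 0.106). Slc2a8, a glucose transporter of intracellular membranes, stood at 0.91, 0.86 and 0.97 in MOD and at 0.01, -0.36 and 0.21 in SA-H. Each SA-H array was below each MOD array, and the difference was -0.96 (SE 0.24, limma adjusted p = 0.0998). In the value table it was -0.13 for Slc2a8 and -1.39 for Bsg. Slc2a3, the high-affinity GLUT3, differed by -0.28 (SE 0.33, limma adjusted p = 0.622).

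The genes that take pyruvate into the mitochondrion and convert it to acetyl-CoA, with the kinases and phosphatases that control this step, were tested in 11 of 14 cases. The mean was lower in the SA-H group for 10 of the 11, and for Pdp2, with a difference of -0.00, it was level, against 52.3% lower among all features. At an unadjusted p under 0.05, 5 were lower, against 12.5% of all features, and 0 passed an adjusted p of 0.05, with a median of -0.66. In the value table this median was -0.07, with 7 of 11 lower, and after normexp correction -0.40. In the main analysis the groups did not overlap for 7 of the 11 genes, against 32.7% of all features. Dld, the E3 subunit of pyruvate dehydrogenase, stood at 2.82, 2.56 and 2.57 in MOD and at 1.32, 1.77 and 1.96 in SA-H, a difference of -0.97 (SE 0.26, limma adjusted p = 0.106). The groups were also apart for Pdhx (-0.71), Dlat (-0.71), Pdp1 (-0.71) and Pdk3 (-1.29), which passed at an unadjusted p under 0.05 (limma adjusted p = 0.142, 0.2, 0.214 and 0.154). Pdhx and Dlat belong to the core of the complex, while Pdk3 inactivates it by phosphorylation and Pdp1 reverses this, so that the list holds genes of opposite roles. Pdk3 was not well above background on SA-H 4, so that its difference there is not a measured size, and it was -0.78 without that array. Without MOD 1 this list had 2 genes at an unadjusted p under 0.05, and 3 or 4 without any other single array.

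In the pentose phosphate pathway, 7 genes were tested. An unadjusted p of 0.05 was passed by 2, both lower, against 12.5% of all features that were lower. They were G6pdx, its first enzyme (-0.93, SE 0.32, limma adjusted p = 0.16), and Rpe (-0.73, SE 0.26, adjusted p = 0.166), and the median was -0.20. With any 1 of the MOD arrays left out, 0 of the 7 passed. Among 16 genes of the TCA cycle, 2 were lower and 0 higher at an unadjusted p under 0.05, a share near the 12.5% of all features. They were Idh3a, a subunit of isocitrate dehydrogenase (-1.31, SE 0.31, adjusted p = 0.0933), and Suclg2 (-1.30, SE 0.46, adjusted p = 0.163), with a median of -0.18. Of these, 1 passed without MOD 1 or without MOD 3. Of the gluconeogenic genes 3 were tested. An unadjusted p of 0.05 was passed by 2, both higher in SA-H, against 10.8% of all features that were higher. G6pc, which releases free glucose and is known mainly from liver and kidney, stood at -2.10, -2.25 and -1.66 in MOD and at -0.67, 0.93 and 1.35 in SA-H. The SA-H arrays were all above the MOD arrays, and the difference was 2.54 (SE 0.52, limma adjusted p = 0.0841). G6pc was well above background on 5 arrays, so it was kept through a single group, and in the value table its difference was -0.07. With genes well above background on all 6 arrays, 2 gluconeogenic genes were left and 1 was higher, with a median of 0.27 in place of 0.91. G6pc3, the form found in most tissues, differed by 0.91 (SE 0.38, limma adjusted p = 0.209), and by 0.27 both as the mean of its kept probes and in the value table, where it did not pass an unadjusted p of 0.05. The count of 2 became 1 without any single array other than SA-H 5.

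The markers of other cell types are counted at an unadjusted p under 0.05, which 12.5% of all features passed as lower and 10.8% as higher, and 0 of them passed an adjusted p of 0.05. Of 13 erythroid genes tested, 4 were lower, among them Epb42 and Rhag, and 0 higher. The mean was lower for 11 of the 13 and higher for 2, by up to 0.71. Their median was -0.67, with scan day as a block -0.39, and within the day of MOD 2 and SA-H 4 0.10. Their summed level, in multiples of the 75th percentile, was 462 to 536 in MOD and 386 to 989 in SA-H. Of 12 genes of dividing cells, 6 were lower, among them Bub1 (-1.28) and Bub1b (-1.37), and 0 higher. The mean was lower for 10 of the 12 and higher for 2, by up to 2.24. Within the day of MOD 2 and SA-H 4 it was higher for 5. The summed level of the dividing cell genes was 111 to 136 against 70.3 to 131. Fat genes were lower for 5 of the 6 tested, of which Adipoq, Cidec, Car3 and Cfd on SA-H 4 were not well above background and so were kept through the MOD arrays, where they were higher. With genes well above background on all 6 arrays, 2 fat genes were left and 1 was lower, with a median of -0.51. The fat genes had summed levels of 9.48 to 13.8 against 5.10 to 6.03. Ribosomal protein genes were higher for 4 of 16 and lower for 1, with a median of 0.49 (0.03 after quantile normalization) and summed levels of 925 to 1160 against 1160 to 2300. The summed level of the 10 genes themselves was 176 to 226 against 139 to 246. Array SA-H 4 held the highest of these sums for the 10 genes (246), the erythroid genes (989) and the ribosomal protein genes (2300). It held the lowest for the fat genes (5.10). A sum weighs bright genes most, and Hk1 stood at 6.68 on SA-H 4. Of the 10 genes, 3 were at their highest and 4 at their lowest on that array. Leaving out 1 array at a time moved the count of lower genes to 3 to 8 for the erythroid, 4 to 9 for the dividing cell and 3 to 5 for the fat genes, and that of higher ribosomal protein genes to 1 to 5. In the authors' table of values, 13 of 13 erythroid and 8 of 8 neutrophil genes were lower at an unadjusted p under 0.05. Higher there were 5 of 8 B cell and 7 of 9 T cell genes. All 6 fat genes had a lower mean in that table, with a median of -0.92, but 0 of 6 passed an unadjusted p of 0.05. Of 8 B cell markers 6 were well above background on all 6 arrays, as were 9 of 9 T cell markers, and 1 B cell gene was higher, Fcer2a, which was well above background on 5 arrays. Among other cells of the spleen, 9 macrophage genes had 1 higher (Spic) and 1 lower (C1qa, not well above background on SA-H 4), and 8 neutrophil genes had 1 lower (Ngp). Of 8 skeletal muscle genes 0 could be tested, with Actn3, Mb, Myh1 and Myh4 well above background on no array, and of 8 liver genes 3 were tested, with Tat higher and Serpina1a lower, while Apoa1 and Ttr were well above background on no array. The part of these cell types in the levels of the glycolysis genes was not tested.

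**Figure D4:**
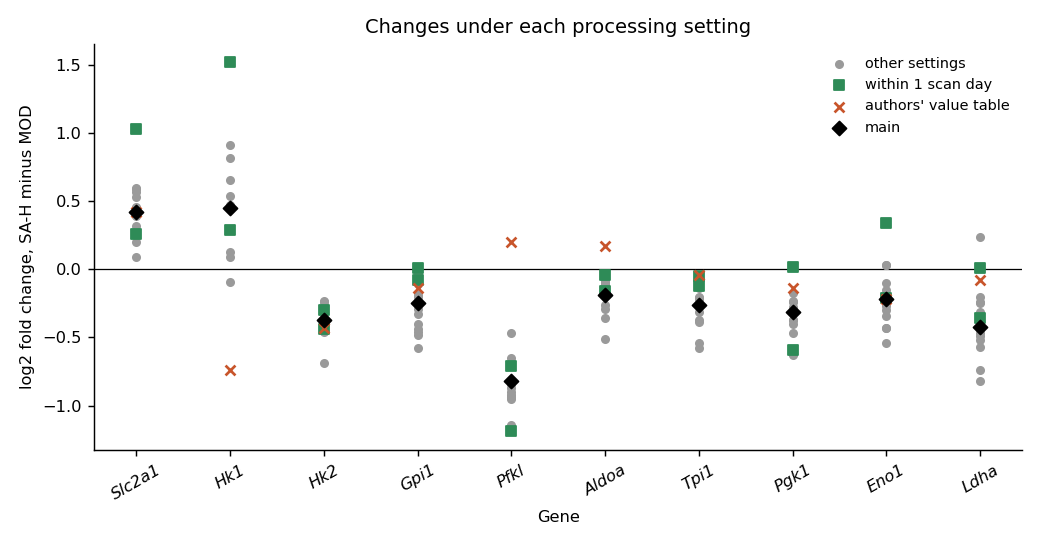
Log2 fold change of each of the 10 genes (SA-H minus MOD, vertical axis) in the main analysis (diamonds), within each of 2 scan days (squares), in the value table of the authors (crosses) and under each other setting (circles). Slc2a1, Hk2 and Tpi1 keep their direction under all settings, while Hk1, Gpi1, Pfkl, Aldoa, Pgk1, Eno1 and Ldha change sign under at least 1.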

How the data were processed

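RNA of 6 mouse spleen samples (3 MOD, 3 SA-H) was labelled with Cy3 and hybridized to 1-colour Agilent arrays. The intensity values (processed signals) are what the authors obtained from Agilent Feature Extraction 11.0.1.1, which subtracts background per the file headers; they were not normalized between arrays. The authors also deposited a table of log2 values, made in a way not given in the sources used here; its columns share a median of 5.351, and the column of an array was the best match to that array's own signals for 3 of 6 columns (Spearman rho 0.81 to 0.90, r of centred values -0.28 to 0.46). It served only as an alternative.

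Signals were taken as log2 minus that of the array's 75th percentile over 43020 spots, with outlier spots (172 to 634 per array) left out and spots of a probe averaged. No spot was saturated (0). A kept probe was well above background on each array of at least 1 group and had a value on all 6, and the brightest kept probe stood for its gene. Of 39429 probes, 27234 were given a symbol through their RefSeq accession. The 14474 genes and unnamed targets (11005 named) were tested in limma 3.58.1 (R 4.3.3) with Benjamini-Hochberg adjustment; summaries used Python 3.11.15. The script was tested on simulated data. The 3 scan days (MOD 1, MOD 3 and SA-H 6; MOD 2 and SA-H 4; SA-H 5 alone) were read from the scanner headers as scan days only.

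The 10 genes and all gene lists were chosen with earlier results of these data known. The genes named are all 10 with every probe, the genes of the pathway lists at an unadjusted p under 0.05, Gapdh, Pkm, Pfkp, Pgam1 and Slc2a3 whatever their p (Slc16a1 was too dim to test), the 5 genes most like the mean profile of the 10, and up to 3 genes of a marker list with small p, other names being given for counts of 5 or fewer; some erythroid genes are not reported here by name. Alternatives were scaling by the array median, quantile normalization, normexp background correction with an offset of 50 (on the median signal, since no mean signal was in the files), the value table, other filters on dim probes, the mean of kept probes, scan day or slide scan as a block, single scan days, the analysis of variance named in the methods, and leaving out each array. The labels and the methods differ on the dose and duration of schizandrol A, and the labels were followed. The extraction protocol names liver as well as spleen.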

Additional observations from a re-analysis of the deposited data

How the results depend on the processing

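Of 262 values recomputed under 18 alternatives, 223 were classed as unchanged. For the change of a gene with a p-value, this meant the same direction and side of the threshold. Counts, the median and the within-day differences have no p-value and were classed by direction or closeness to the main value. A count of 2680 called genes was thus classed with the main count of 1849. The count of called genes over all features, 1849, was 3158 after scaling by the array median and 1135 by the analysis of variance of the methods, and ran from 1228 (without SA-H 4) to 2466 when 1 array was left out. The share of called genes that were higher was 60.6%, and 31.6% after median scaling, which moved the median of all features from -0.04 to -0.36, and 23.3% in the value table. Features at an adjusted p under 0.05 numbered 1094 after median scaling, 210 after normexp correction, 1779 in the value table, 1075 with scan day as a block and 22 without SA-H 4.

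Of the 10 genes, 2 in place of 1 passed an unadjusted p of 0.05 after quantile normalization, in the value table and with scan day as a block, and 1 in place of 0 was called after median scaling. Their median of -0.26 became -0.58 after median scaling, -0.22 relative to all features in both cases, and -0.05 within the scan day of MOD 2 and SA-H 4. In the value table Aldoa was at 0.17, Hk1 at -0.74, Pfkl at 0.20 and Slc2a1 at 0.42, which there passed an unadjusted p of 0.05. With scan day as a block Eno1 was at 0.03 and Hk1 at 0.82. Within the day of MOD 2 and SA-H 4, Eno1 was at 0.34, Hk1 at 1.52, Ldha at 0.01, Pfkl at -1.19, Pgk1 at -0.59 and Slc2a1 at 1.03, and within the other day Gpi1 was at 0.01 and Pgk1 at 0.02. Ldha was at -0.82 after quantile normalization and at 0.24 as the mean of its kept probes. With 1 array left out, Eno1 ran from -0.43 to 0.03 and Hk1 from -0.09 (without SA-H 4) to 0.91. The other glycolytic enzymes at an unadjusted p under 0.05 numbered 1, and 3 after median scaling, 4 in the value table, 0 with no filter on dim probes, 2 as the mean of kept probes, 5 with scan day and 4 with slide scan as a block, and 0 (without any 1 MOD array) to 5 (without SA-H 5) with 1 array left out. The causes were not tested. No paired analysis was possible because the groups share no replicate numbers. Scan day and slide scan, which are not replicate numbers, were used as blocks above. Array SA-H 4 had the lowest 75th percentile (219.7 against 432.6 to 867.8), and its lowest level well above background, -2.70, was the highest of the 6 arrays.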
